A study of Homo sapiens with 12 samples.

Results

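The human pancreatic carcinoma cell lines L3.6pl and FG were compared after growth at low oxygen, using 3 Affymetrix arrays of hypoxic L3.6pl cells and 3 of hypoxic FG cells. These 6 arrays were taken by their labels from the 12 of the series; the other 6 are the same lines left in normal air, 3 arrays each, and serve below as a second comparison. Both lines descend from the same pancreatic adenocarcinoma line, and L3.6pl was selected in nude mice by repeated implantation into the pancreas and recovery of liver metastases, so the comparison asks how a more and a less metastatic relative differ when oxygen is scarce. In every group, cells were thawed, grown to near confluence without passaging for about 9 days in serum-containing Dulbecco's medium with antibiotics, and, in the hypoxia groups, held at 1% oxygen for the last 24 h. Each line is a single established line kept in plastic culture, so a difference between the groups is a difference between these lines. The labels do not say that the replicates were separate cultures, and p-values then measure only the spread between these arrays, which may be technical.

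At low oxygen the prolyl hydroxylases encoded by the EGLN genes lose activity, the alpha subunits of the hypoxia-inducible factors (HIF1A, EPAS1) escape degradation, and with ARNT they bind DNA and raise genes of glycolysis, blood vessel growth and matrix remodelling. Pancreatic ductal carcinoma is known for poorly perfused tissue, and tumours are grouped by expression into a classical class, with gut-like epithelial genes, and a basal-like class, with squamous keratins. Invasion is commonly studied through integrins, plasminogen activators, matrix proteins and growth factor receptors, all of which this array measures.

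4 promoters are shown, of genes among the most strongly lowered in L3.6pl, because they hold repeated or shared elements. They are the 250 bases before the annotated start, read 5′ to 3′ on the gene's own strand, from RefSeq on GRCh38.p14. CGA encodes the alpha subunit shared by the glycoprotein hormones, and capitals in its promoter, at chr6:87095107-87095356 on the minus strand, mark TGACGTCA, the palindromic cyclic AMP response element, at positions -142 to -135 and -124 to -117 counted back from the start. EDN1 encodes the vasoconstrictor endothelin precursor, and capitals in its promoter, at chr6:12287769-12288018 on the plus strand, mark the letters ACGTG or GCGTG on either strand, the core that hypoxia-inducible factors bind, beginning at -240, -93 and -47. MAGEA6 (chrX:152769690-152769939, minus strand) and MAGEA12 (chrX:152733507-152733756, plus strand) are neighbouring cancer-testis genes, silent in most adult tissues, and capitals mark the longest run that their promoters share, 27 bases.
CGA: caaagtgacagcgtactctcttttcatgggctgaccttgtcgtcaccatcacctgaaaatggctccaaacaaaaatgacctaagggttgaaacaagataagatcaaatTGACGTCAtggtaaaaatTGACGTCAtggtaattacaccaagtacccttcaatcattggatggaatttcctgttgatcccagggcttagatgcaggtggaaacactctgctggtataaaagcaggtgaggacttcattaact
EDN1: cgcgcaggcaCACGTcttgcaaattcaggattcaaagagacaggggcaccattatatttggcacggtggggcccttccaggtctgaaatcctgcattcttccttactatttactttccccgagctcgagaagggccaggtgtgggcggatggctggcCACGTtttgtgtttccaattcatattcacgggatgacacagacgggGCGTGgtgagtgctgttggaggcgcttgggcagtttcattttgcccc
MAGEA6: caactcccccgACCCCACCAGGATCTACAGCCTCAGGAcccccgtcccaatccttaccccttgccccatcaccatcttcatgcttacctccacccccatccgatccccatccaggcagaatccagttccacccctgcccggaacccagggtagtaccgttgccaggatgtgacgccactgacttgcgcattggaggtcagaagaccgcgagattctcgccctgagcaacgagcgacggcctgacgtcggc
MAGEA12: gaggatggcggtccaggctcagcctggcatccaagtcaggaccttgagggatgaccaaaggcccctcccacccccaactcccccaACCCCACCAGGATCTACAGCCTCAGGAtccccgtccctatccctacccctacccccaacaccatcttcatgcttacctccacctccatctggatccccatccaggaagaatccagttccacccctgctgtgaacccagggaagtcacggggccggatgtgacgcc
A local alignment of both MAGEA promoters paired 177 positions, of which 157 (88.7%) were identical. TGACGTCA occurred at least once in 2.38% of the 15384 promoters matched to the 19775 genes measured, and 2 or more times in 12 of them, of which 2 belonged to genes higher in L3.6pl and 1, CGA, to a gene lower by the test below (8.14% and 5.88% of all genes measured). ACGTG or GCGTG, searched on both strands, occurred in 50.9% of all these promoters, in 55.1% of those of genes higher in L3.6pl and in 53.9% of those of genes lower. Repeats, as in EDN1, were common: 2 or more matches occurred in 24.5% of all promoters, 27.6% of the higher and 25.7% of the lower genes. TGACGTCA may overlap the other motifs at its ends. The 4 promoters and TGACGTCA were chosen after the values were seen, and a match describes letters in this window only.

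Expression is given as log2 of the deposited intensity, a relative scale on which 1 unit is a 2-fold difference. The median gene stood at 6.22 on the 6 arrays, a low level (10th percentile) was 3.50, and a level that 1 gene in 10 exceeded was 9.71. The files carry no detection calls, so a value near the 10th percentile cannot be told from no expression, and the number of arrays limits the precision. Within a line the arrays correlated at 0.980 or more, against 0.949 to 0.966 between lines. The first principal component separated the lines and held 67.5% of the variance. On the second, which held 19.6%, both replicate 3 arrays stood apart, L3.6pl at 39.2 and FG at 21.3. The other arrays lay between -25.1 and -4.92. Mean intensity also followed the replicate number in all 4 groups, 264 to 267 for replicate 1, 267 to 268 for replicate 2 and 274 to 276 for replicate 3.

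Between the lines in hypoxia, 2773 of 19775 genes, 14.0%, differed at an adjusted p below 0.05 (limma with Benjamini-Hochberg adjustment over all genes). 1610 of them (8.14% of genes tested) were higher in L3.6pl and 1163 (5.88%) were lower. 704 of the higher and 565 of the lower genes differed at least 2-fold, and 46 and 51 at least 8-fold. In all 2773 the ranges of the 3 L3.6pl and the 3 FG arrays did not overlap, which was true of 32.1% of genes tested. The smallest difference called was 0.35 log2 and the median size among called genes 0.94, whereas the median difference over all genes was 0.02. With 3 arrays against 3, a two-sided exact permutation test of a single gene cannot give a p below 0.1, so calls rest on the spread that limma shares across genes. Cells of a line may also differ among themselves, and fewer expressing cells and less RNA per cell cannot be told apart.

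**Figure D1:**
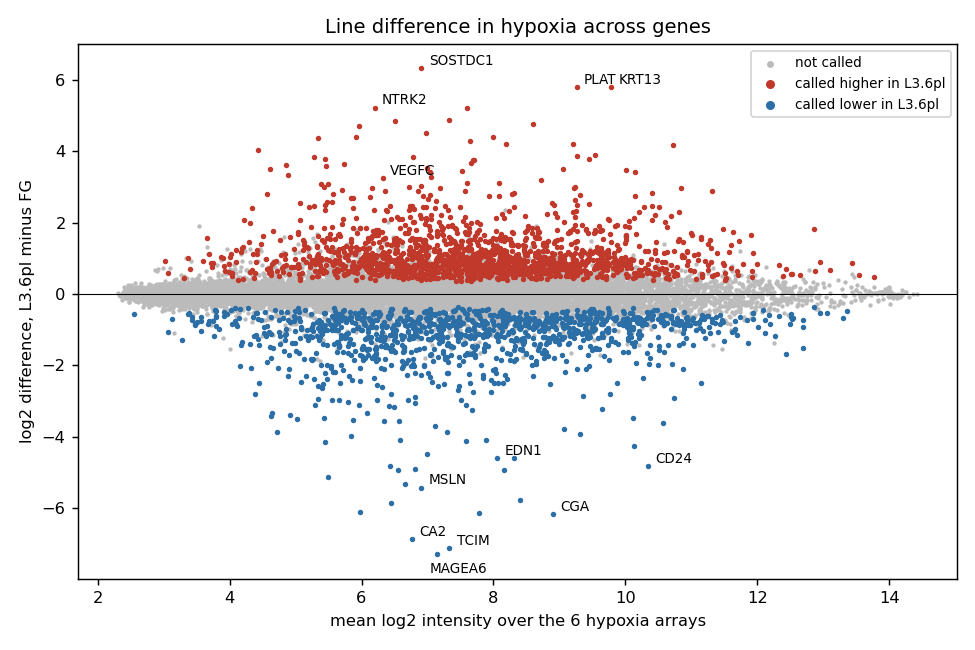
Each point is 1 gene, with its mean log2 intensity over the 6 hypoxia arrays on the horizontal axis and the log2 difference L3.6pl minus FG on the vertical axis; red and blue mark the 1610 and 1163 genes called at an adjusted p below 0.05. Called genes lie on both sides at most levels, from SOSTDC1 at 6.33 to MAGEA6 at -7.31.

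Epithelial markers stood high in both lines. On the log2 scale the epithelial surface protein EPCAM averaged 12.18 ± 0.16 in L3.6pl and 12.07 ± 0.11 in FG (mean ± SD, n = 3), and the ductal keratin KRT19 averaged 13.39 ± 0.17 in L3.6pl and 12.49 ± 0.17 in FG. Among 19 measured markers of stroma, endothelium and blood, 2 were higher in L3.6pl, 1 was lower and 16 did not pass the test, and the list's mean level was 5.60 to 5.62 on FG arrays and 5.40 to 5.49 on L3.6pl arrays. Of the defining markers, the leukocyte gene PTPRC averaged 4.20 in L3.6pl and 4.42 in FG, and the endothelial gene CDH5 3.15 and 3.09, near the low end of the scale. Stromal members of the list stood higher, COL1A1 at 9.49 in L3.6pl and 10.91 in FG, COL3A1 at 5.69 and 10.63, and ACTA2 at 7.35 and 6.51, as did the endothelial gene PECAM1 at 8.16 and 7.18, while the means of the other 15 lay between 2.58 and 6.66. Whether other cells contribute to the line differences was not tested. Of 14 acinar and endocrine genes, 1 was higher and 13 did not pass.

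The largest rises in L3.6pl included secreted antagonists, keratins, receptors and enzymes. SOSTDC1, a secreted inhibitor of bone morphogenetic protein and Wnt signals, read 9.14, 10.02 and 11.06 on the L3.6pl arrays and 3.47, 3.83 and 3.94 on the FG arrays (log2 intensity). Every L3.6pl array exceeded every FG array by more than 5 units, and the difference was 80.4-fold (6.33 ± 0.444, adjusted p = 0.000394; log2 difference ± SE here and below). The FG values lay near the 10th percentile of 3.50, so the size of this fold depends on the low end of the scale. KRT13, a keratin of the upper layers of stratified epithelium, read 12.49, 12.56 and 12.99 on the L3.6pl arrays and 6.85, 7.20 and 6.61 on the FG arrays, a 55.6-fold difference (5.80 ± 0.197, adjusted p = 3.13e-05). PLAT, the tissue plasminogen activator, read 11.78, 12.49 and 12.22 on the L3.6pl arrays and 4.83, 6.83 and 7.44 on the FG arrays. FG replicate 1 lay well under the other FG arrays; the log2 difference was 5.79 ± 0.627, adjusted p = 0.00207, and it was 5.02 without that array. NTRK2, the receptor for brain-derived neurotrophic factor, read 8.25, 9.08 and 9.11 on the L3.6pl arrays and 3.54, 3.58 and 3.64 on the FG arrays, 37.3-fold higher (5.22 ± 0.232, adjusted p = 8.07e-05). Its FG values were at the level of the 10th percentile of all genes, so the size of this fold has the same limit.

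HS3ST1, which adds sulfate to heparan sulfate chains, differed by 5.23 ± 0.189, adjusted p = 3.80e-05. IL1R1, the signalling receptor of interleukin-1, read 8.27, 9.08 and 9.47 on the L3.6pl arrays and 3.87, 4.01 and 4.36 on the FG arrays and was 29.1-fold higher. S100A8, a calcium-binding subunit of calprotectin, was 29.5-fold higher, with L3.6pl arrays spread from 8.84 to 10.59. CP, the copper-carrying ferroxidase ceruloplasmin, varied widely in FG, at 10.50, 11.34 and 11.09 on the L3.6pl arrays and 4.60, 6.35 and 7.74 on the FG arrays; its log2 difference of 4.75 (adjusted p = 0.00717) was 3.94 without FG replicate 1. BCHE (butyrylcholinesterase) was 26.3-fold higher, HLA-DRA (the alpha chain of an MHC class II molecule) 23-fold, the cancer-testis gene SAGE1 21.2-fold, the gel-forming mucin MUC2 20.9-fold, LOC105375172 20.8-fold and the annexin ANXA10 19.5-fold. DUSP6, the phosphatase that switches off ERK, read 10.77, 11.27 and 11.92 on the L3.6pl arrays and 7.15, 6.25 and 7.89 on the FG arrays, a log2 difference of 4.22 (adjusted p = 0.00196).

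The largest falls included cancer-testis genes, enzymes and a hormone subunit. Where the lower group lies near the 10th percentile of 3.50, as for MAGEA6, MAGEA12, CA2, OLR1 and most arrays of TCIM in L3.6pl, the size of the fold depends on the low end of the scale, so these folds are not ranked against others. MAGEA6 read 3.12, 3.65 and 3.70 on the L3.6pl arrays and 10.73, 10.82 and 10.84 on the FG arrays, 158-fold lower in L3.6pl (-7.31 ± 0.168, adjusted p = 1.59e-05). MAGEA12, whose promoter shares the 27-base run shown above, read 3.19, 3.83 and 3.55 on the L3.6pl arrays and 9.12, 9.53 and 9.52 on the FG arrays, 58.3-fold lower (-5.86 ± 0.197, adjusted p = 3.13e-05). Both genes were near the bottom of the scale on every L3.6pl array, and since MAGEA transcripts are close copies, probes for one may also catch the other. TCIM, a small regulator of transcription and immune responses, read 2.80, 3.38 and 5.12 on the L3.6pl arrays and 10.85, 10.76 and 11.09 on the FG arrays. L3.6pl replicate 3 lay above the other L3.6pl arrays; the log2 difference of -7.13 (adjusted p = 0.000544) was -7.81 without it. CA2, a carbonic anhydrase, read 3.04, 3.41 and 3.53 on the L3.6pl arrays and 10.05, 10.12 and 10.43 on the FG arrays and was 117-fold lower (-6.88 ± 0.168, adjusted p = 1.59e-05). CGA, the hormone subunit whose promoter holds the paired TGACGTCA, read 6.12, 5.51 and 5.83 on the L3.6pl arrays and 12.54, 11.77 and 11.69 on the FG arrays, 72.5-fold lower (-6.18 ± 0.261, adjusted p = 8.07e-05). All 3 FG arrays placed CGA above 11.6, and all 3 L3.6pl arrays placed it under 6.2.

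CPS1, the first enzyme of the urea cycle, was 70.9-fold lower, and OLR1, a receptor for oxidised lipoprotein, 69.5-fold lower, with every L3.6pl array under 3. The actin-binding protein TAGLN read 5.61, 5.48 and 5.45 on the L3.6pl arrays and 11.05, 10.90 and 11.95 on the FG arrays, a 55.1-fold difference (-5.78 ± 0.268, adjusted p = 8.38e-05). MYL9, a myosin light chain of contractile cells, differed by -5.34 on the probe set used, but of its 2 probe sets 1 had the other sign. MSLN, the surface glycoprotein mesothelin, read 3.99, 4.25 and 4.33 on the L3.6pl arrays and 9.40, 9.76 and 9.73 on the FG arrays, 43.4-fold lower (-5.44 ± 0.148, adjusted p = 2.02e-05). CD24, a sialylated surface protein, read 7.35, 7.93 and 8.52 on the L3.6pl arrays and 12.75, 12.77 and 12.77 on the FG arrays and was 28.5-fold lower. Its FG arrays lay closer together than its L3.6pl arrays, and all 6 of its probe sets had this sign. The log2 difference was -5.14 for QPCT (glutaminyl cyclase), -4.93 for TPGS2 (a tubulin polyglutamylase subunit; 5 of 7 probe sets of this sign), -4.93 for COL3A1 (a fibrillar collagen) and -4.91 for STEAP4 (a metalloreductase).

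**Figure D2:**
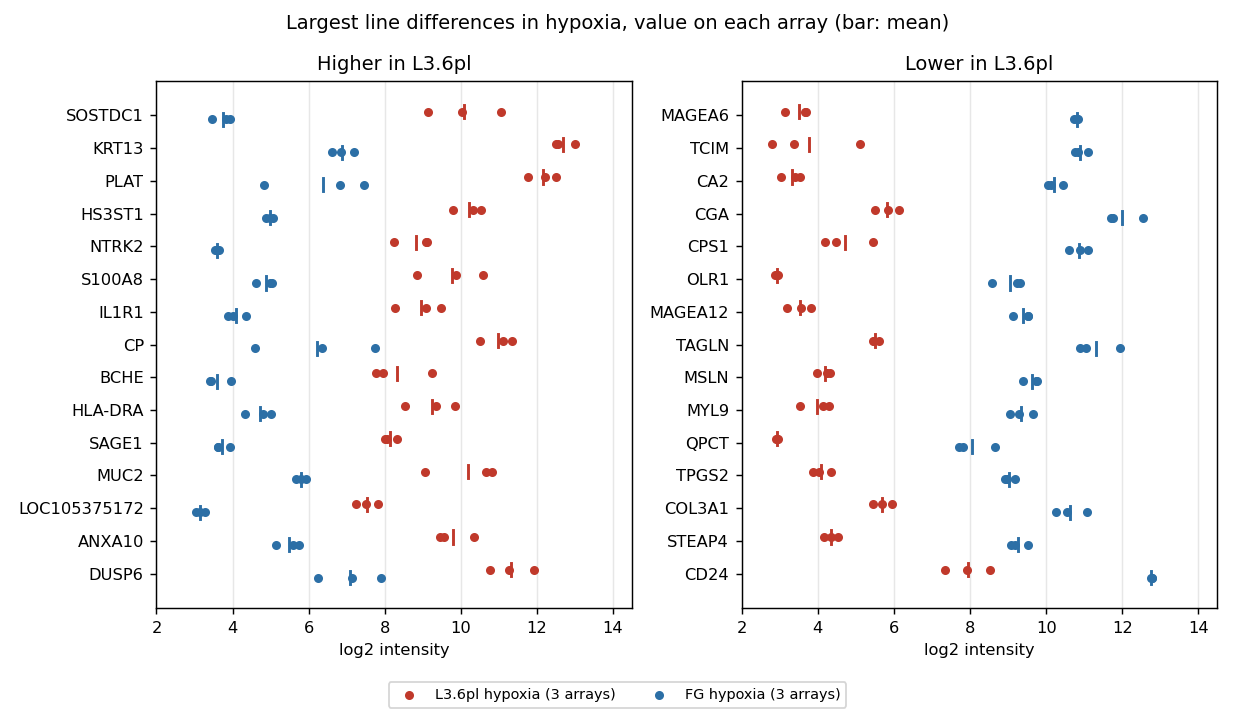
Dots give the log2 intensity on each of the 3 L3.6pl (red) and 3 FG (blue) hypoxia arrays, and vertical bars the group means, for the 15 genes with the largest differences in each direction. Groups that do not overlap were a condition for choosing these genes. PLAT and CP spread widely in FG and TCIM in L3.6pl.

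31 lists of genes were examined, and each list's counts are read against the background of 8.14% higher and 5.88% lower among all genes. Called genes stood higher on the scale than all genes, at a median level of 7.69 against 6.25. When dim genes, under the median level over the 12 arrays, were left out, 1366 of 9888 genes were higher and 893 lower. That background is the nearer one for lists of well expressed genes. None of the following shares was tested as a set. The background also moved with the fit. With the replicate block 14.3% of all genes were higher and 9.95% lower. Over all 19775 genes, 788 were higher and 726 lower without FG replicate 1, 691 and 612 without FG replicate 2, and 1314 and 809 without FG replicate 3. These counts were 1209 and 739 without L3.6pl replicate 1, 966 and 706 without L3.6pl replicate 2, and 1800 and 1649 without L3.6pl replicate 3. Of 129 called genes named here, 100 were also called in each of the 6 fits that leave out an array; the other 29 are given with the processing settings. Where leaving out 1 array moved a count of 3 or more, or a median given here of at least 0.1 in size, by over 1.5 times, this is given with the list. Oxygen sensing genes were higher for 3 of 11, lower for 0, with a median log2 difference of 0.21 against 0.02 over all genes; the median was 0.13 without FG replicate 2, 0.32 without FG replicate 3, and 0.36 and 0.35 without L3.6pl replicates 1 and 3. EPAS1, the alpha subunit of HIF-2, read 10.49, 10.89 and 10.11 on the L3.6pl arrays and 8.53, 8.76 and 8.92 on the FG arrays (1.76 ± 0.212, adjusted p = 0.00306). EGLN3, a prolyl hydroxylase that is itself raised by hypoxia-inducible factors, read 10.84, 11.16 and 11.24 on the L3.6pl arrays and 8.56, 9.00 and 9.51 on the FG arrays, 4.17-fold higher (2.06 ± 0.245, adjusted p = 0.00294). HIF1AN, the asparaginyl hydroxylase that dampens the factors, differed by 0.74 (adjusted p = 0.0224). HIF1A itself read 12.20, 12.29 and 12.21 on the L3.6pl arrays and 11.97, 11.64 and 11.49 on the FG arrays; its difference of 0.53 did not pass (adjusted p = 0.0525), and passed under 7 of the alternatives run, the replicate block among them (0.0308). EGLN1, the main oxygen-sensing hydroxylase, gave -0.65 (adjusted p = 0.0846, 0.0344 with the block).

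Among 33 targets of the factors, 3 were higher, 0 lower and 30 did not pass, and the median was 0.16. The higher share was 9.09%, beside 8.14% of all genes and 1366 of 9888 genes with dim ones left out. The 3 higher genes were EGLN3, the collagen prolyl hydroxylase P4HA2 (1.45 ± 0.195, adjusted p = 0.00472) and the adenylate kinase AK4 (0.58 ± 0.126, adjusted p = 0.026). Without L3.6pl replicate 3 the count was 5 higher and the median 0.32; the median was 0.00136 without FG replicate 1, 0.24 without FG replicate 3 and 0.00614 without L3.6pl replicate 2. VEGFA, the principal vessel growth factor, read 12.32, 12.69 and 11.64 on the L3.6pl arrays and 12.13, 12.31 and 12.13 on the FG arrays: the groups overlapped, at 0.03 ± 0.255, adjusted p = 0.964, and its 4 probe sets did not share 1 sign. LDHA, the lactate-forming dehydrogenase, differed by 0.01 (adjusted p = 0.971), PGK1 (phosphoglycerate kinase) by 0.26 (0.18) and DDIT4, a brake on mTOR, by -0.03 (0.908). ADM, the vessel-dilating peptide adrenomedullin, stood at -0.66 (adjusted p = 0.113, 0.0198 with the block). 4 of 21 glycolysis genes were higher and 0 lower (median 0.19): PFKL (0.93) and PFKM (0.55), subunits of phosphofructokinase, aldolase ALDOA (0.54) and pyruvate kinase PKM (0.53; 1 of 2 probe sets of this sign). The higher share of this list was 19.0%, beside 8.14% of all genes and 1366 of 9888 genes with dim ones left out. The list's count was 1 without FG replicate 1, FG replicate 2 or L3.6pl replicate 2, and 2 without L3.6pl replicate 1. PFKM kept its call in none of the 6 fits that leave out an array. GAPDH differed by 0.05 (adjusted p = 0.814). Of 23 mitochondrial respiration genes, NDUFB5 of complex I was higher (0.64) and CYC1 of complex III lower (-0.67). The called share was 8.70%, beside 14.0% of all genes. COX6C of complex IV gave -0.41 (adjusted p = 0.0778, 0.0445 with the block).

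The angiogenic list split into 4 higher and 4 lower of 20, with a median of 0.01. VEGFC, the ligand that drives lymphatic growth, read 7.62, 8.12 and 8.09 on the L3.6pl arrays and 4.73, 4.22 and 5.15 on the FG arrays, 9.5-fold higher (3.25 ± 0.255, adjusted p = 0.000611). The semaphorins SEMA3A (1.48) and SEMA3C (1.59) were higher too. EDN1, whose promoter is shown above with 3 matches to ACGTG or GCGTG, read 5.52, 5.86 and 5.87 on the L3.6pl arrays and 10.31, 10.01 and 10.77 on the FG arrays, 24.4-fold lower (-4.61 ± 0.21, adjusted p = 8.11e-05). Every FG array exceeded every L3.6pl array by more than 4 units. FGF2, a growth factor for endothelium, differed by -0.74 ± 0.12, adjusted p = 0.00897.

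Of 31 growth factor receptors and ligands, 11 were higher, 4 lower and 16 did not pass, with a median of 0.27, which was 0.13 without L3.6pl replicate 3. The higher count was 7 without FG replicate 2, and the lower count was 2 without any 1 FG array or L3.6pl replicate 2. EGFR read 12.07, 12.40 and 11.05 on the L3.6pl arrays and 10.16, 10.50 and 9.90 on the FG arrays, a 3.15-fold difference (1.65 ± 0.348, adjusted p = 0.023), with L3.6pl replicate 3 lowest of its group; 1 of the 6 fits that leave out an array kept the call, the one without that array. Its ligand TGFA differed by 1.93 ± 0.157, adjusted p = 0.000718. EPHB4, an ephrin receptor, was higher (1.25), and EFNA1, an ephrin ligand, read 9.27, 8.94 and 9.07 on the L3.6pl arrays and 11.45, 11.40 and 11.48 on the FG arrays and was lower (-2.35 ± 0.117, adjusted p = 0.000114). MET, the receptor of hepatocyte growth factor, gave -0.17 (adjusted p = 0.506) and IGF1R -0.16 (0.689), with overlapping groups in both.

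Among 36 cytokines, chemokines and receptors, 8 were higher and 4 lower (median 0.11); the lower count was 2 without FG replicate 1, and the median was 0.06 without FG replicate 2 or L3.6pl replicate 3 and 0.24 without L3.6pl replicate 1. Both parts of the interleukin-1 receptor were higher, IL1R1 as above and its partner IL1RAP at 1.46 ± 0.145, adjusted p = 0.00153. CXCL3, a neutrophil-attracting chemokine, read 9.62, 10.06 and 9.52 on the L3.6pl arrays and 7.04, 7.13 and 6.51 on the FG arrays (2.84 ± 0.214, adjusted p = 0.00053). TGFB1 was 4.28-fold higher (2.10 ± 0.175, adjusted p = 0.000815). CXCL8, interleukin-8, read 11.79, 11.93 and 10.45 on the L3.6pl arrays and 11.46, 10.78 and 10.42 on the FG arrays, with overlapping groups (adjusted p = 0.549). CXCR4, the receptor of CXCL12, read 11.20, 11.36 and 9.56 on the L3.6pl arrays and 12.22, 12.36 and 12.12 on the FG arrays; the difference of -1.53 did not pass (adjusted p = 0.0707) and did with the block (0.0165), and L3.6pl replicate 3 had the lowest value. Without that array it was -0.96 and passed (adjusted p = 0.0036).

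Integrins and adhesion molecules had 10 higher, 2 lower and 12 not passed of 24, with a median of 0.33, which was 0.12 without L3.6pl replicate 3, when 10 were higher and 4 lower, and 0.52 without L3.6pl replicate 1. The higher count was 6 without FG replicate 1 or 2. ITGA2, the collagen-binding alpha chain, read 11.57, 11.76 and 11.01 on the L3.6pl arrays and 9.32, 9.46 and 9.33 on the FG arrays, 4.21-fold higher (2.07 ± 0.196, adjusted p = 0.00128). ITGA6, the laminin-binding alpha chain, read 10.72, 11.08 and 11.20 on the L3.6pl arrays and 9.08, 9.10 and 9.17 on the FG arrays (1.88 ± 0.143, adjusted p = 0.000549). L1CAM, a neural adhesion molecule, read 5.44, 5.80 and 6.07 on the L3.6pl arrays and 8.10, 8.19 and 7.84 on the FG arrays and was lower with CD24 (-2.27 ± 0.184, adjusted p = 0.000702). ITGB1, the common beta chain, gave -0.17 (adjusted p = 0.427) and the tetraspanin CD9 0.27 (0.5). CD44, the hyaluronan receptor, differed by 0.73 (adjusted p = 0.0227; 11 of 13 probe sets of this sign).

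Of 28 proteases, plasminogen genes and inhibitors, 7 were higher and 5 lower. These counts were 4 and 3 without FG replicate 1 or 2 and 4 and 4 without L3.6pl replicate 2. PLAU, the urokinase activator, read 10.00, 10.73 and 9.76 on the L3.6pl arrays and 7.64, 7.43 and 7.92 on the FG arrays, 5.66-fold higher (2.50 ± 0.263, adjusted p = 0.00191), in the same direction as PLAT. The metalloprotease inhibitor TIMP1 was higher (1.65 ± 0.152, adjusted p = 0.00117) and TIMP2 lower (-1.76 ± 0.177, adjusted p = 0.00156; 2 of 3 probe sets of this sign). The sheddase ADAM9 was lower at -1.46. MMP9, the gelatinase, read 5.25, 5.38 and 5.79 on the L3.6pl arrays and 5.69, 5.94 and 6.10 on the FG arrays and did not pass (adjusted p = 0.176, 0.0298 with the block). The cathepsin CTSB gave -0.23 and the serpin SERPINB5 0.26, with adjusted p of 0.594 and 0.662.

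Matrix genes were lower for 8 of 27 and higher for 4, and the list's median was -0.00033; the higher count was 2 without FG replicate 1 or L3.6pl replicate 1. COL12A1, a fibril-associated collagen, read 3.95, 4.37 and 5.31 on the L3.6pl arrays and 8.81, 8.55 and 8.56 on the FG arrays, 17.1-fold lower (-4.10 ± 0.325, adjusted p = 0.000646). The matricellular protein TNC read 4.10, 4.11 and 3.93 on the L3.6pl arrays and 6.38, 6.78 and 6.73 on the FG arrays (-2.58 ± 0.139, adjusted p = 0.000158; 2 of 3 probe sets of this sign). LAMB1, a laminin chain, was lower at -1.45 and LAMB3, a chain of the epithelial laminin, gave -0.13 (adjusted p = 0.662). COL1A1 stood at -1.43 (adjusted p = 0.0586, 0.000665 with the block). P4HA1, which hydroxylates collagen, gave 0.46 (adjusted p = 0.261).

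Mesenchymal markers moved in both directions, 6 higher and 4 lower of 21, with a median of -0.03. The higher count was 2 without FG replicate 1 or 2 and 3 without L3.6pl replicate 2. VIM, the mesenchymal filament protein, read 12.71, 12.89 and 12.60 on the L3.6pl arrays and 11.76, 11.75 and 12.25 on the FG arrays (0.82 ± 0.167, adjusted p = 0.021), and ITGA5, the fibronectin-binding alpha chain, was higher at 1.72 (adjusted p = 0.0027). FN1, fibronectin, read 5.04, 5.27 and 5.54 on the L3.6pl arrays and 7.85, 8.43 and 8.71 on the FG arrays, 8.27-fold lower (-3.05 ± 0.239, adjusted p = 0.000607), and FOXC2, a transcription factor of mesenchymal transition, fell by 1.38 on the log2 scale. LGALS1 gave 1.20 (adjusted p = 0.129, 0.00593 with the block). Of 30 epithelial junction and keratin genes, 4 were higher, 5 lower and 21 did not pass; the lower count was 3 without FG replicate 2 or L3.6pl replicate 2. CDH1, E-cadherin, read 10.75, 11.05 and 10.24 on the L3.6pl arrays and 10.47, 10.98 and 10.39 on the FG arrays, with overlapping groups (0.07 ± 0.246, adjusted p = 0.914). CLDN1, a tight junction claudin, was higher (1.61 ± 0.13, adjusted p = 0.000697), as were KRT19 (0.90 ± 0.14, adjusted p = 0.0077) and the tight junction gene MARVELD3 (1.62). CLDN3 was lower at -1.17 and OVOL1, an epithelial transcription factor, at -2.40 (adjusted p = 0.000881). DSP, desmoplakin, gave 0.65 (adjusted p = 0.188, 0.0167 with the block).

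**Figure D3:**
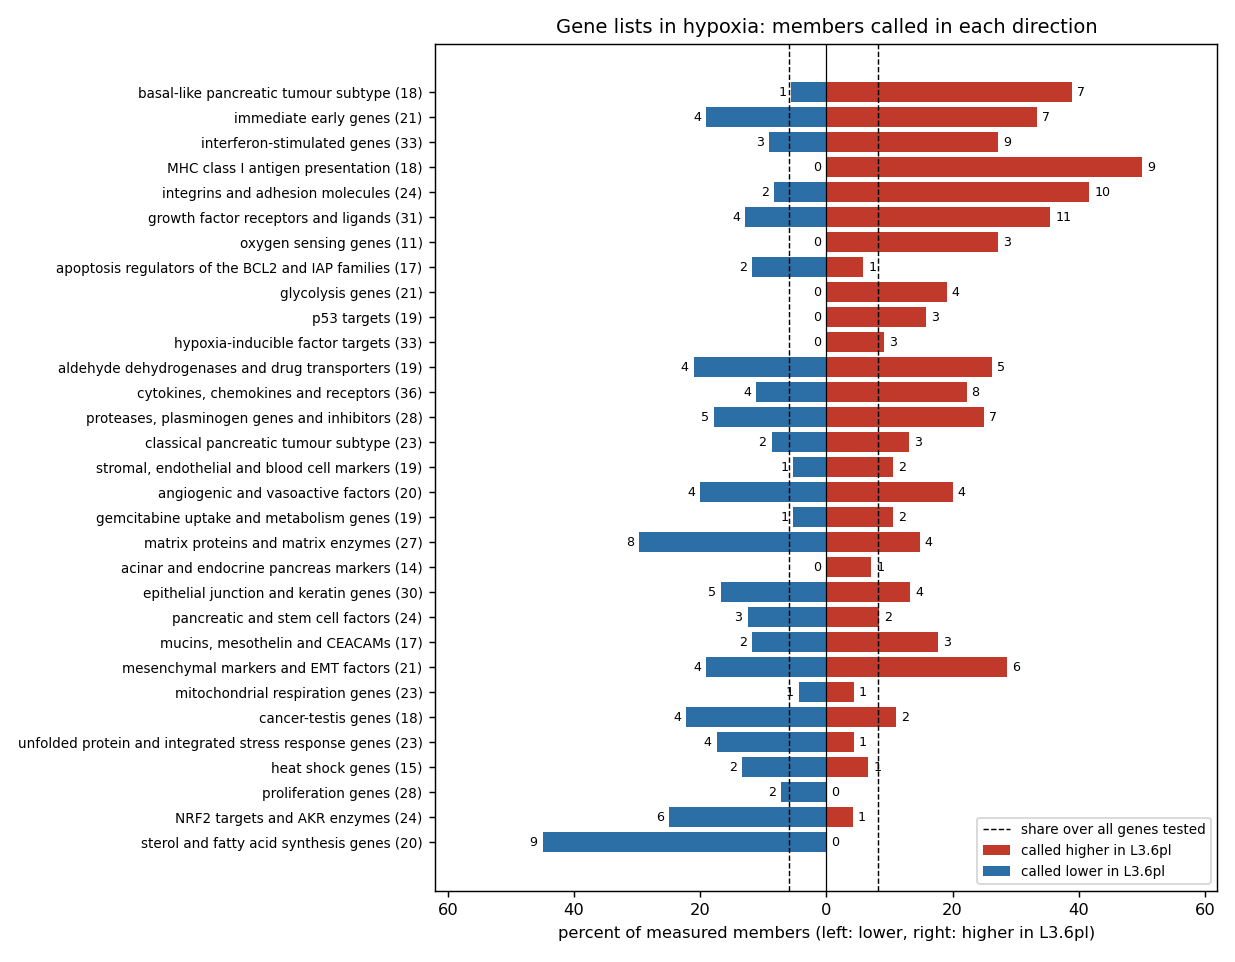
Bars give the percent of each list's measured members called higher (right) or lower (left) in L3.6pl hypoxia arrays, with the counts at the bar ends, list sizes in brackets and lists ordered by median difference; dashed lines mark 8.14% and 5.88%, the shares over all genes. MHC class I genes reach 9 of 18 on the higher side (0 without FG replicate 1), and sterol and fatty acid synthesis genes 9 of 20 on the lower side (3 without L3.6pl replicate 2).

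Basal-like genes had the highest median of the 31 lists, 1.09, with 7 higher, 1 lower and 10 not passed of 18. The median was 0.75 without L3.6pl replicate 3, when 8 were higher and 2 lower, and the higher count was 4 without FG replicate 1 or 2. KRT15, a keratin of basal epithelial cells, read 11.50, 11.90 and 11.80 on the L3.6pl arrays and 9.24, 9.33 and 9.31 on the FG arrays, 5.42-fold higher (2.44 ± 0.13, adjusted p = 0.000149). The focal adhesion protein TNS4 (1.73), FAM83A (1.37) and the protease CTSV (1.37) were higher too, whereas the ductal keratin KRT7 gave -0.15 (adjusted p = 0.751) and the glucose carrier SLC2A1 -0.08 (0.805). Classical genes had 3 higher and 2 lower of 23, with a median of 0.01. ANXA10 and the adhesion molecule CEACAM6 (9.73-fold; 3.28 ± 0.355, adjusted p = 0.00205) were higher, and TSPAN8 (-1.86) and PRR15L (-1.24) lower. AGR2, a disulfide isomerase of mucus-secreting cells, gave 0.75 and ST6GALNAC1, a sialyltransferase, -0.67; their adjusted p were 0.195 and 0.347, and 0.0251 and 0.0212 with the block.

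Of 17 mucin, mesothelin and CEACAM genes, 3 were higher and 2 lower. MUC2 and CEACAM6 were higher, MSLN and the membrane mucin MUC13 lower (7.44-fold; -2.90 ± 0.166, adjusted p = 0.000199). MUC1 had equal means in both lines to 2 decimals (adjusted p = 0.999). MUC4 gave 0.97 (adjusted p = 0.0717, 0.0124 with the block). Among 24 pancreatic and stem cell factors, 2 were higher and 3 lower. SOX2, a pluripotency factor, read 7.75, 8.87 and 9.65 on the L3.6pl arrays and 4.90, 5.22 and 5.87 on the FG arrays, 10.8-fold higher (3.43 ± 0.48, adjusted p = 0.00538). SOX4 read 6.91, 7.76 and 7.63 on the L3.6pl arrays and 9.12, 9.11 and 9.53 on the FG arrays and was lower (-1.82 ± 0.245, adjusted p = 0.00473). KLF5 and MYC passed with the block only, at -0.52 (0.044; 0.377 without) and 0.45 (0.036; 0.338 without).

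9 of 18 MHC class I genes were higher and 0 lower, with a median of 0.42. This count fell in most fits that leave out an array, while the median stayed between 0.38 and 0.50. It was 0 without FG replicate 1, 4 without FG replicate 2, and 3 without FG replicate 3 or L3.6pl replicates 1 or 2. It was 9 without L3.6pl replicate 3. Over all genes the higher count also fell, from 1610 to 788 without FG replicate 1. The peptide pump TAP1 (0.81 ± 0.162, adjusted p = 0.0192), HLA-E (0.57), HLA-C (0.56) and HLA-F (0.51, 2 of 3 probe sets of this sign) were among the 9 higher genes. HLA genes are near-identical in long stretches, so probes may not separate them. The light chain B2M gave 0.02 (adjusted p = 0.95) and the chaperone CANX 0.06 (0.835). Interferon-stimulated genes had 9 higher and 3 lower of 33, with a median of 0.46; without L3.6pl replicate 3 the counts were 10 and 6, and the higher count was 5 and 4 without FG replicates 1 and 2. OAS1, which senses double-stranded RNA, read 8.79, 8.82 and 9.24 on the L3.6pl arrays and 7.10, 7.36 and 7.35 on the FG arrays (1.68 ± 0.157, adjusted p = 0.00122). IFI35 (1.41), the interferon signalling factor IRF9 (1.06) and PARP14 (1.06; 1 of 2 probe sets of this sign) were higher. IFI27 gave -0.11 (adjusted p = 0.876) and IFI44 0.63 (0.12, 0.00861 with the block).

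Sterol and fatty acid synthesis genes had the lowest median, -0.76. 9 of 20 were lower, 0 higher, and 18 of 20 had negative differences. With the replicate block 16 were lower, as were 9.95% of all genes. The lower count was 5 without FG replicate 1, FG replicate 2 or L3.6pl replicate 1, and 3 without L3.6pl replicate 2. In these 4 fits, in this order, lower calls over all genes also fell, from 1163 to 726, 612, 739 and 706. The list's medians ran from -0.86 to -0.67 over the 6 fits that leave out an array. SQLE, squalene epoxidase, read 7.01, 6.91 and 8.04 on the L3.6pl arrays and 9.13, 8.79 and 9.61 on the FG arrays, 3.63-fold lower (-1.86 ± 0.341, adjusted p = 0.0142). DHCR7, the last enzyme of cholesterol synthesis, was lower at -1.48 (with all 12 arrays in 1 fit it did not pass, adjusted p = 0.0617), the desaturase FADS2 at -1.36 and SREBF2, the transcription factor of the pathway, at -0.74. SCD gave -0.15 (adjusted p = 0.611) and FDPS -0.59 (0.25, 0.0106 with the block). NRF2 targets and AKR enzymes had 1 higher and 6 lower of 24 (median -0.37, and -0.14 without L3.6pl replicate 2), with GCLM, a subunit of the glutathione-forming ligase, at -1.34 ± 0.187, adjusted p = 0.00535, malic enzyme ME1 at -1.41, the glucuronidating enzyme UGT1A6 at -1.65 (adjusted p = 0.0553 with all 12 arrays in 1 fit) and the export pump ABCC2 at -1.82 ± 0.132, adjusted p = 0.000449. AKR1C1 (-0.11, adjusted p = 0.853) and GSTP1 (-0.24, 0.264) did not pass, and AKR1C genes are near copies that probes may not separate.

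Aldehyde dehydrogenases and drug transporters split 5 higher and 4 lower of 19, and 2 were lower without FG replicate 2 or L3.6pl replicates 1 or 2. ALDH1A1 and ALDH1A3, which both make retinoic acid, moved in opposite directions. ALDH1A1 read 5.33, 4.88 and 6.37 on the L3.6pl arrays and 9.58, 9.52 and 9.84 on the FG arrays, 17.4-fold lower (-4.12 ± 0.357, adjusted p = 0.000911), and ALDH1A3 read 11.66, 11.87 and 12.01 on the L3.6pl arrays and 8.09, 8.83 and 8.37 on the FG arrays, 10.7-fold higher (3.42 ± 0.204, adjusted p = 0.000215). ALDH3B1 was higher at 1.47, and ALDH3A1 and ALDH3A2 gave 0.26 and -0.28 (adjusted p = 0.664 and 0.305). Of 19 genes of gemcitabine uptake and metabolism, 2 were higher and 1 lower, a called share of 15.8% beside 14.0% of all genes. DCK, the kinase that activates the drug, was lower (-0.75 ± 0.161, adjusted p = 0.024), and thymidine kinase TK2 (1.54) and the deaminase DCTD (0.92) were higher. 1 of the 6 fits that leave out an array kept the DCK call. RRM2, a subunit of ribonucleotide reductase, gave 0.00 (adjusted p = 0.996) and NME1 -0.65 (0.245, 0.0345 with the block).

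Immediate early genes had 7 higher and 4 lower of 21 (median 0.48). The counts were 3 and 2 without FG replicate 1 or 2, 4 and 3 without FG replicate 3, and 3 and 6 without L3.6pl replicate 2. DUSP6 and the AP-1 subunit FOSL1 (1.90 ± 0.17, adjusted p = 0.00102) were higher. ATF3, a stress-induced transcription factor, read 6.05, 6.18 and 5.74 on the L3.6pl arrays and 8.62, 8.47 and 8.47 on the FG arrays, 5.77-fold lower (-2.53 ± 0.138, adjusted p = 0.000165), and the orphan receptor NR4A1 was lower at -1.36. JUN gave -0.98 (adjusted p = 0.107, 0.0378 with the block) and JUND -0.61 (0.157). Of 23 unfolded protein and integrated stress response genes, 1 was higher, EDEM1 (0.95), and 4 were lower, among them the amino acid carrier subunit SLC3A2 (-0.87) and CEBPG (-1.61); without L3.6pl replicate 3 the counts were 3 higher and 4 lower. The chaperone HSPA5 gave -0.04 (adjusted p = 0.901). Heat shock genes had 1 higher, BAG3 (0.94), and 2 lower, HSPB8 (-1.48) and HSPA4L (-0.76), of 15; HSP90AA1 and HSPD1 gave -0.04 and -0.08 (adjusted p = 0.933 and 0.743).

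Proliferation genes were lower for 2 of 28 and higher for 0, with a median of -0.31. The lower share was 7.14%, beside 5.88% of all genes and 893 of 9888 genes with dim ones left out. The median was -0.11 without FG replicate 1, -0.46 without FG replicate 2 and -0.14 without L3.6pl replicate 2. In normal air the list's median had the other sign, 0.37, with 0 members called higher and 0 lower. The 2 genes lower in hypoxia were the centromere proteins CENPF (-1.22 ± 0.113, adjusted p = 0.00117) and CENPE (-0.60 ± 0.153, adjusted p = 0.045). With the replicate block 7 were lower (9.95% of all genes), and without L3.6pl replicate 3, 5 (1649 of all 19775 genes). MKI67, the proliferation antigen, read 9.21, 8.78 and 8.23 on the L3.6pl arrays and 9.51, 9.08 and 9.11 on the FG arrays, with overlapping groups (-0.49 ± 0.258, adjusted p = 0.287). TOP2A gave -0.33 and CCNB2 0.03 (adjusted p = 0.359 and 0.958). Of 19 p53 targets, 3 were higher and 0 lower, a called share of 15.8% beside 14.0% of all genes. Without L3.6pl replicate 3, 3 were higher and 3 lower, and without FG replicate 1 or 2, 1 was higher. The death receptors FAS (1.70 ± 0.153, adjusted p = 0.00105) and TNFRSF10B (0.87) and the repair protein DDB2 (1.36) were the higher ones. GDF15 spread by 1.61 (SD) within L3.6pl and gave -0.80 (adjusted p = 0.612), and CCNG1 gave -0.15 (0.699). Among 17 apoptosis regulators, BID was higher (0.62) and BIRC2, an inhibitor of apoptosis (-1.17 ± 0.107, adjusted p = 0.00113), and PMAIP1 (-1.17) were lower; MCL1 and BIK gave 0.52 and 0.49 (adjusted p = 0.0802 and 0.128).

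Of 18 cancer-testis genes, 2 were higher and 4 lower. MAGEB2 (-3.52 ± 0.219, adjusted p = 0.000244) fell with MAGEA6 and MAGEA12, and PRAME rose (1.24 ± 0.216, adjusted p = 0.0119), while MAGED1 and PAGE5 gave 0.61 and 0.32 (adjusted p = 0.207 and 0.125). CEL, a bile-salt-dependent lipase of acinar cells, was the acinar gene that differed, reading 9.46, 9.89 and 9.36 on the L3.6pl arrays and 5.37, 6.01 and 6.07 on the FG arrays (3.75 ± 0.229, adjusted p = 0.000234); the other acinar genes CELA3B and GP2 gave 0.03 and -0.01 (adjusted p = 0.899 and 0.964). The stromal-list genes that differed were COL3A1, lower, and PECAM1 (0.98) and ACTA2 (0.83), higher; this last pair kept its call in 1 of 6 fits that leave out an array. HBB gave 0.16 (adjusted p = 0.546).

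Across chromosomes, genes called higher made up 15.3% of those on chromosome 16, 13.6% on 21 and 13.3% on 9, against 8.14% overall. Genes called lower made up 14.9% of those on chromosome 8 and 14.0% on 13, against 5.88% overall. 6 runs of 20 neighbouring genes had 10 called lower, 3 on chromosome 8, 2 on chromosome 11 and 1 on chromosome 13, and no such run had 10 called higher. On chromosome 13 the run from SUCLA2 to SPRYD7, which holds the tumour suppressor RB1, had a median log2 difference of -0.67, and -0.60 in normal air. On chromosome 11 the run from CEP295 to MTMR2 had medians of -0.78 and -0.90. Copy number was not measured, and these runs are a description of neighbouring genes with no test.

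In normal air, from a model of all 12 arrays, 2116 genes (10.7%) differed between the lines. The 2773 hypoxia calls came from 6 arrays, so the counts and shared calls below join unlike fits. The 12-array model called 3310 genes in hypoxia, and the 6 normoxic arrays alone called 1991 in normoxia. The normoxia arrays are other arrays than the hypoxia ones, and the line differences at both oxygen levels correlated across genes at r = 0.816, a description since genes are not independent replicates. Of the 2773 genes called in hypoxia, 2671 (96.3%) had the same sign in normoxia. 1383 were called at both levels in 1 direction, 49.9% of the hypoxia calls and 65.4% of the normoxia calls. A single gene, CDKN2AIP, was called in opposite directions, at -1.02 in hypoxia and 0.70 in normoxia, with an interaction that did not pass (adjusted p = 0.0633); it was named after its values were seen. MAGEA6 differed by -7.31 in hypoxia and -7.32 in normoxia, SOSTDC1 by 6.33 and 6.66, and KRT13 by 5.80 and 5.97.

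The difference between both line differences, tested as the interaction of line and oxygen, passed for 5 genes (0.0253%), with 1427 at an unadjusted p below 0.05 and 13 passing with the replicate block. ATF3 differed by -2.53 in hypoxia and by -0.23 ± 0.143 in normoxia (interaction -2.30 ± 0.202, adjusted p = 0.00259). CREB5, a cyclic AMP response element binding protein, read 4.15, 4.60 and 4.65 on the L3.6pl arrays and 6.80, 6.65 and 6.52 on the FG arrays in hypoxia, a difference of -2.19, and differed by 0.06 ± 0.132 in normoxia (interaction -2.25 ± 0.186, adjusted p = 0.00259). In both genes hypoxic FG stood high, averaging 8.52 for ATF3 and 6.66 for CREB5, while the means of the other 3 groups were 5.81 to 6.05 and 4.15 to 4.46. MAOA, a monoamine oxidase, read 8.77, 9.35 and 9.61 on the L3.6pl arrays and 5.71, 5.72 and 5.98 on the FG arrays in hypoxia, a difference of 3.44 against 1.22 ± 0.195 in normoxia (interaction 2.22 ± 0.276, adjusted p = 0.0289). SERTAD4 read 4.96, 4.62 and 5.06 on the L3.6pl arrays and 5.23, 5.18 and 5.35 on the FG arrays in hypoxia, where it did not pass (-0.37 ± 0.14, adjusted p = 0.142), and differed by -2.38 ± 0.161 in normoxia (interaction 2.01 ± 0.227, adjusted p = 0.0193). RAB31, a small GTPase of vesicle transport, gave 0.30 ± 0.103, adjusted p = 0.109 in hypoxia and -0.80 ± 0.0949 in normoxia (interaction 1.10 ± 0.134, adjusted p = 0.0289). The calls of MAOA, SERTAD4 and RAB31 were lost in 8, 5 and 7 of the 12 fits that leave out an array, and with probe sets averaged the CREB5 interaction was -0.97 (adjusted p = 0.0570), that of ATF3 -2.24 (0.0754) and that of SERTAD4 1.14 (0.0974). SERTAD4 and RAB31, not called in hypoxia, were named after their values were seen.

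Several large hypoxia differences were smaller in normal air without passing the interaction test. Genes called in hypoxia were picked on their hypoxia values, and as a set they differed less in normoxia. The median was 0.93 in hypoxia and 0.58 in normoxia for genes called higher. For genes called lower it was -0.98 and -0.75. CGA differed by -6.18 and -2.79 (interaction -3.39 ± 0.559, adjusted p = 0.0708), CEL by 3.75 and 1.02 (interaction 2.73 ± 0.382, adjusted p = 0.0532), and TNC by -2.58 and -0.79 (interaction -1.79 ± 0.326, adjusted p = 0.0864). TCIM (-7.13 and -3.61; interaction -3.53 ± 0.878, adjusted p = 0.283) and EDN1 (-4.61 and -2.16; interaction -2.45 ± 0.652, adjusted p = 0.313) varied by more than 1 unit (SD) among normoxic FG arrays.

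**Figure D4:**
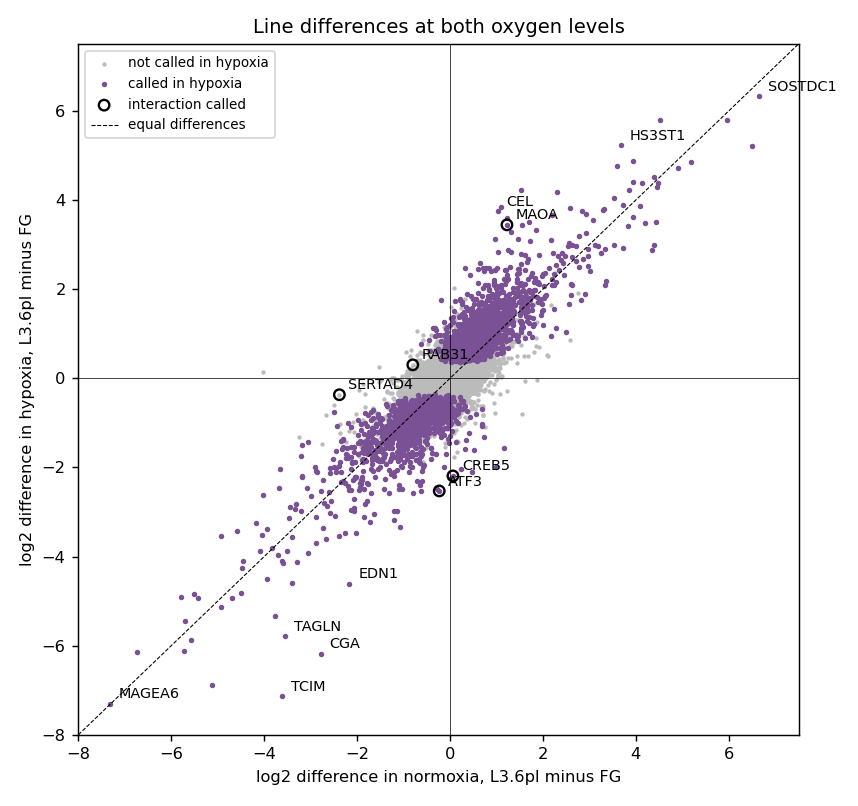
Each point is 1 gene, with its log2 difference L3.6pl minus FG in normoxia on the horizontal axis and in hypoxia on the vertical axis; purple marks genes called in hypoxia, circles the 5 genes whose interaction passed, and the dashed line equal differences. Most called genes lie in the lower left and upper right of the plot, while ATF3 and CREB5 lie near 0 in normoxia and under -2 in hypoxia.

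Same-numbered arrays of both lines deviated together from their group means, so each number was also treated as a pair. 10543 genes (53.3%) had the same sign in all 3 pairs, 5828 higher and 4715 lower in L3.6pl. The pairs' differences correlated across genes at 0.893 for pairs 1 and 2, 0.760 for 1 and 3, and 0.800 for 2 and 3. With the number as a block, 4789 genes (24.2%) were called, 2821 higher (14.3%) and 1968 lower (9.95%), and all 2773 earlier calls were among them. The 2016 genes gained had a median size of 0.58 log2, and in 705 of them the groups overlapped. 18 genes named here gained a call with the block. 11 of them also passed in at least 1 alternative without it, and 7 (ADM, AGR2, FDPS, KLF5, MYC, NME1 and ST6GALNAC1) in none. JUN differed by -1.50, -0.17 and -1.28 in pairs 1, 2 and 3, CXCR4 by -1.021, -1.001 and -2.57, and MMP9 by -0.44, -0.55 and -0.30.

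**Figure D5:**
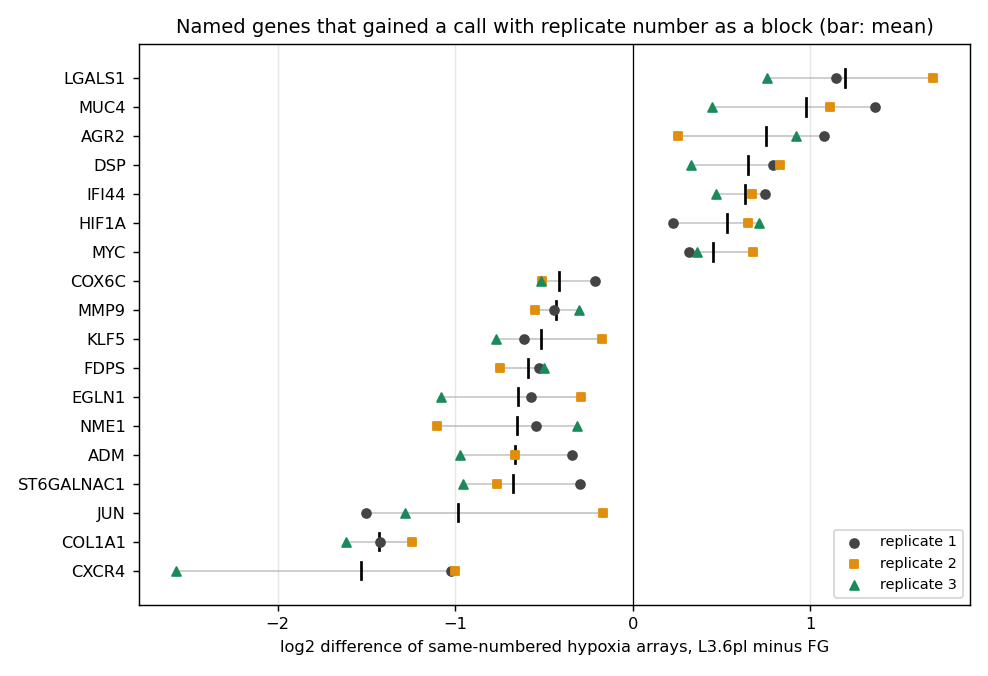
For the 18 named genes that did not pass without the replicate block and passed with it, markers give the log2 difference L3.6pl minus FG of same-numbered hypoxia arrays (circle, replicate 1; square, replicate 2; triangle, replicate 3), the grey line their range and the black bar their mean. In all 18 genes the 3 differences lie on 1 side of 0, which choosing genes by the paired fit favours. CXCR4 spreads most, with pair 3 at -2.57.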

How the data were processed

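Total RNA of cultured cells was labelled with biotin and hybridised to 1-colour Affymetrix arrays. Per the submitters' processing notes the authors used RMA (version, build and parameters not given in the sources used here), and the deposited values are 1 intensity per probe set on a linear scale, 54675 in all, here turned to log2. Probe sets naming 1 gene in the platform annotation (41091) were kept, 1 per gene (highest mean over the 12 arrays), which left 19775 genes; 1801 probe sets naming several genes, 11721 naming none and 62 controls were left out. Lines were compared with limma 3.58.1 (R 4.3.3) on the 6 hypoxia arrays with line as the single term. Normoxia and the interaction came from 1 model of 12 arrays. P-values were adjusted by Benjamini-Hochberg over all genes, and genes with an adjusted p below 0.05 were called. The number of arrays limits the precision.

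Replicate numbers from the labels, which do not say what a number marks, were checked for pairing. Deviations from the group mean of same-numbered hypoxia arrays correlated at 0.358, 0.444 and 0.462 (different numbers, -0.454 to 0.179). All 3 were over a threshold of 0.1, so the numbers were taken to pair the arrays. The threshold does not separate pairs from all others, since L3.6pl replicate 1 with FG replicate 2 gave 0.179. In normoxia same numbers gave 0.528 to 0.735 and different numbers -0.653 to 0.262. Deviations sum to 0 within a group, so these values are not independent. Named genes were the 15 largest differences in each direction with groups that did not overlap, up to 8 interactions each way among genes called in hypoxia and for the interaction, per list up to 4 called genes with the smallest adjusted p and 2 highest genes that did not pass, and 14 genes whatever their values; XIST and Y-linked genes were left out. The groups and lists were chosen with earlier results of these data known. The alternatives were other normalizations, probe set rules, moderation, array weights, thresholds and leaving out each array. The fits were tested on simulated data with 200 changed genes. Arrays were drawn independently there, whereas same-numbered arrays here deviated together. The share of changed genes was also set, at 200 of 19775, while the data gave 2773 calls in hypoxia and 5 for the interaction. Recovery depends on that share, so the percentages below need not hold for the data. A log2 difference of 1 was recovered for 61% of genes in the hypoxia fit and 46% in the interaction. A difference of 2 was recovered for 91% and 93%. Of 162 simulated hypoxia calls 10 were false, and of 150 interaction calls 11. Promoters were searched with Python 3.11.15 and aligned with Biopython 1.88.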

Additional observations from a re-analysis of the deposited data

Results flagged for a closer look

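For 5 genes the line difference in hypoxia differed from that in normoxia by the test of the interaction (limma, adjusted p below 0.05 over all genes); the values are log2 differences of differences. ATF3 stood at -2.30 and CREB5 at -2.25, and in both hypoxic FG had the highest mean of the 4 groups. With probe sets of 1 gene averaged, ATF3 gave -2.24 (adjusted p = 0.0754), CREB5 -0.97 (0.0570) and SERTAD4 1.14 (0.0974). MAOA stood at 2.22, SERTAD4 at 2.01 and RAB31 at 1.10. ATF3 and CREB5 passed in all 12 fits that leave out an array, whereas MAOA, SERTAD4 and RAB31 did not pass in 8, 5 and 7 of them, with adjusted p up to 0.114, 0.0886 and 0.122. RAB31 also missed the threshold with cyclic loess (0.0528), with centred arrays (0.0544), with dim genes left out (0.0557) and with trend and robust moderation (0.0548). In groups of 3 arrays single outlying values were not tested.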

How the results depend on the processing

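The hypoxia count of 2773 genes was 4789 with the replicate block, 4366 with all 41091 probe sets tested singly, 4239 with array weights, 1114 at an adjusted p below 0.01, 1269 at a log2 difference of at least 1, and 5727 without L3.6pl replicate 3 and with the block, an alternative added after the data were seen. Leaving out 1 array gave 1303 to 3449 genes; it was 1514 without FG replicate 1, 1303 without FG replicate 2 and 1672 without L3.6pl replicate 2. Cyclic loess gave 3083 genes, of which 49.8% were higher in L3.6pl, against 58.1%. The normoxia count of 2116 was 3487 with probe sets tested singly, 6623 with array weights, 1025 at 0.01 and 884 at a log2 difference of at least 1, and 1254 to 1967 without 1 array. The interaction count of 5 was 13 with the block, 11 with centred arrays, 13 with the mean of probe sets, 26 with probe sets singly, 10 with trend and robust moderation, 421 with array weights, 2 at 0.01, and 2 to 23 without 1 array. The cause of these shifts was not tested, beyond fewer arrays or a stricter threshold. Counts with probe sets tested singly are of 41091 probe sets rather than 19775 genes, so they are not shifts of the gene count.

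No called gene named here changed sign under the alternatives run. The replicate block, which treats same-numbered arrays as pairs, added calls for 18 named genes, given with both values, and changed no other call of a named gene. The 29 calls lost without at least 1 array were ACTA2, AK4, ALDOA, BID, CD44, CENPE, CYC1, DCK, DDB2, EDEM1, EGFR, HIF1AN, HLA-C, HLA-E, HLA-F, HSPA4L, NDUFB5, PECAM1, PFKM, PKM, PMAIP1, PRAME, PRR15L, SQLE, SREBF2, TAP1, TNFRSF10B, TSPAN8 and VIM, with adjusted p up to 0.161. With all arrays and the same threshold, 9 named calls were lost when all 12 arrays entered 1 fit, 7 with the mean of probe sets, 4 with centred arrays, 4 with probe sets singly, 3 with cyclic loess, 3 with trend and robust moderation, 1 with array weights and 1 with the probe set chosen on the hypoxic arrays. These were 16 genes: DHCR7 and UGT1A6, with all 12 arrays in 1 fit, and ACTA2, AK4, BID, CENPE, CYC1, DCK, HIF1AN, HLA-F, PECAM1, PFKM, PKM, SREBF2, TNFRSF10B and VIM from the list above. Low signal limits genes such as OLR1, QPCT and MAGEA6 in L3.6pl, and SOSTDC1 and NTRK2 in FG, which read near the low end of the scale there.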
